A study of Mus musculus with 6 samples.

Results

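The genes described here are long noncoding RNAs of 2 kinds: transcripts that stay in the nucleus, and host genes whose introns carry small nucleolar RNAs (snoRNAs). The list held 10 names, of which 8 matched a name in the deposited gene table of 33924 names: Malat1, Neat1, Gas5, Snhg1, Snhg3, Snhg5, Snhg11 and Snhg12. Snhg8 and Kcnq1ot1 did not match under those names and were not analysed here. All 8 matched genes passed the filter on low counts (filterByExpr, minimum count 10), as did 20001 genes in all.

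The study compared 3 libraries of normal lung from mice given saline with 3 libraries of lung tumour from mice given urethane by intraperitoneal injection at 1 g/kg, all of the FVB/NJ strain and harvested at the 6 months time point. Urethane is a carcinogen that induces tumours in the mouse lung. No genetic change is named for either group, and the labels give no age, sex or count of tumours per library. The control libraries carry the replicate numbers 1, 2 and 3 and the tumour libraries 1, 2 and 4, and each was made from total RNA. No label says that samples were pooled or came from separate animals, so p-values measure the spread between these libraries.

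Malat1 and Neat1 are among the most abundant long noncoding RNAs of mammalian nuclei. Malat1 collects in nuclear speckles, which store splicing factors, and Neat1 is the scaffold of paraspeckles. The Snhg genes and Gas5 work differently: splicing releases an intron that is trimmed to a snoRNA, a guide for the chemical modification or cleavage of ribosomal RNA, and the spliced host is often short lived. Box C/D snoRNAs direct ribose methylation and box H/ACA snoRNAs direct the formation of pseudouridine. Several hosts share with ribosomal protein and translation factor genes a run of pyrimidines at the start of the transcript, the terminal oligopyrimidine (TOP) tract.

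Counted reads came to 38996532 to 62336537 per library, and mitochondrial ribosomal RNA took 17.6% to 25.3% of them. Levels within a gene are given as CPM, read counts relative to the TMM-scaled library size, and levels between genes per kilobase of exon as well (RPKM). Tumour replicate 2 stood apart at sex-linked genes, with 3360 CPM of Xist against at most 32.9 CPM elsewhere. Without that library the same numbers of these RNAs were called, 2 higher and 1 lower. Of 6 markers each, all 6 alveolar type 2 markers were higher in tumours, with a summed level of 8003 to 13193 CPM in control and 22490 to 52516 CPM in tumour libraries. All 6 endothelial markers were lower, at 2666 to 3502 CPM against 145 to 218 CPM, as were all 6 club cell, 6 ciliated and 6 lymphocyte markers. Of the remaining markers, 4 of 6 for alveolar type 1 cells, 5 of 6 for fibroblasts and 1 of 6 for macrophages were lower, and 1 alveolar type 1 marker was higher. No marker was at 0 in all 3 tumour libraries. The part of these shifts in the results below was not tested, and in bulk tissue fewer cells of a type and less RNA per cell cannot be told apart.

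The snoRNAs inside the hosts matter for what the host counts hold, because reads in the overlap of 2 or more names went to every one of those names. The sequences below are those of the snoRNAs with the most reads, summed over the libraries, in the exons of Snhg1, Snhg3 and Snhg12, of Snord99, which rose in tumours, and, from Gas5, of 1 snoRNA that was called and 1 that was not (Snord78 and Snord47). They are shown 5′ to 3′ from the GENCODE M21 transcripts, with lengths equal to those in the deposited table. Capitals mark TGATGA (box C) and the last CTGA (box D) in box C/D snoRNAs, and the last ACA in box H/ACA snoRNAs.
Snord22, in Snhg1: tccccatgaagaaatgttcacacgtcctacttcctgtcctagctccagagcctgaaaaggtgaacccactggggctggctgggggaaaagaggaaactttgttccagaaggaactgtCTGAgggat
Snora73a, in Snhg3: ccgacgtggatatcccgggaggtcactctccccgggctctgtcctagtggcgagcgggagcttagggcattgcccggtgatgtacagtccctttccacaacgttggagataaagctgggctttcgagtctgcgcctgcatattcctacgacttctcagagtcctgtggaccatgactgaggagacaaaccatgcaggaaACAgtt
Snora61, in Snhg12: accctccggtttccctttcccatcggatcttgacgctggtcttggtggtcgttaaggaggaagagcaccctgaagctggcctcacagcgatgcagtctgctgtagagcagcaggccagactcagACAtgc
Snord99, in Snhg12: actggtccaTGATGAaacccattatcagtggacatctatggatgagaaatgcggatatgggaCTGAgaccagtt
Snord78, in Gas5: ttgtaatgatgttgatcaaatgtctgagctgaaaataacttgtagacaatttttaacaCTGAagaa
Snord47, in Gas5: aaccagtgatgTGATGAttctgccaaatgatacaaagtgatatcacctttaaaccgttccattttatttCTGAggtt
In mm9, Snord22 lies on the plus strand at chr19:8800356-8800481 and is 126 bases long. Snora73a lies on the minus strand at chr4:131908690-131908894 and is 205 bases long. The others are Snora61 (chr4:131866155-131866284), Snord99 (chr4:131866606-131866679), Snord78 (chr1:162967115-162967180) and Snord47 (chr1:162968213-162968289), all on the plus strand. Searched on the transcript strand only, TGATGA before the last CTGA was found in 73 of 97 transcripts named Snord (75.3%), but not in Snord22 or Snord78. An ACA within 6 bases of the 3′ end was found in 37 of 40 transcripts named Snora (92.5%), and in both shown here it ended 3 bases from the end.

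The start of the transcript was compared as well, since the pyrimidine tract is the feature that sets TOP genes apart. RefSeq (GRCm38.p6) gave 10 starts for 9 of the listed genes. The windows below hold 10 bases before the start and 20 from it on. Capitals mark a tract of C followed by at least 4 of C or T that opens within 5 bases of the start, searched on the transcript strand only.
Gas5, downstream start: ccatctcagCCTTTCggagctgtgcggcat
Snhg12: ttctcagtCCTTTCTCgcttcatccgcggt
Snhg3: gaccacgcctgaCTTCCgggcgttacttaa
Snhg1: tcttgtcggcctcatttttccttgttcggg
Snhg5: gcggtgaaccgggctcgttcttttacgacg
The Gas5 window is chr1:161035156-161035185 and that of Snhg12 is chr4:132308668-132308697, both on the plus strand. That of Snhg3 is chr4:132353667-132353696 on the minus strand, that of Snhg1 chr19:8723477-8723506 on the plus strand, and that of Snhg5 chr9:88522878-88522907 on the minus strand. The tract was found at the downstream start of Gas5 and at Snhg3, Snhg8 and Snhg12. It was not found in the windows of Malat1, the upstream start of Gas5, Snhg1, Snhg5, Snhg11 or Kcnq1ot1. The same search found it at 6027 of 32851 RefSeq starts (18.3%) and at 4 of 10 starts of translation factor genes known for a TOP tract. A single base of error in an annotated start can hide or create a match, so these are descriptions of the letters in the windows.

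Tumours differed from control lung in 3 of the 8 RNAs. Gas5 and Snhg5, both snoRNA hosts, were higher, and Snhg11, the host of SNORA71 snoRNAs, was lower. Malat1, Neat1, Snhg1, Snhg3 and Snhg12 did not pass the test (edgeR quasi-likelihood, Benjamini-Hochberg adjusted p under 0.05 over all genes tested). Of all genes tested, 42% passed it, with 18.1% higher in tumours and 23.8% lower, so 3 of 8 is near the share over all genes. The median log2 fold change was 0.28 over the 8 RNAs and 0.01 over all genes. All 3 tumour libraries lay above all controls for 2 of the 8 and below them for 1. Of all genes 56% had groups that did not overlap, 26.1% with the tumours above and 29.9% with them below.

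**Figure D1:**
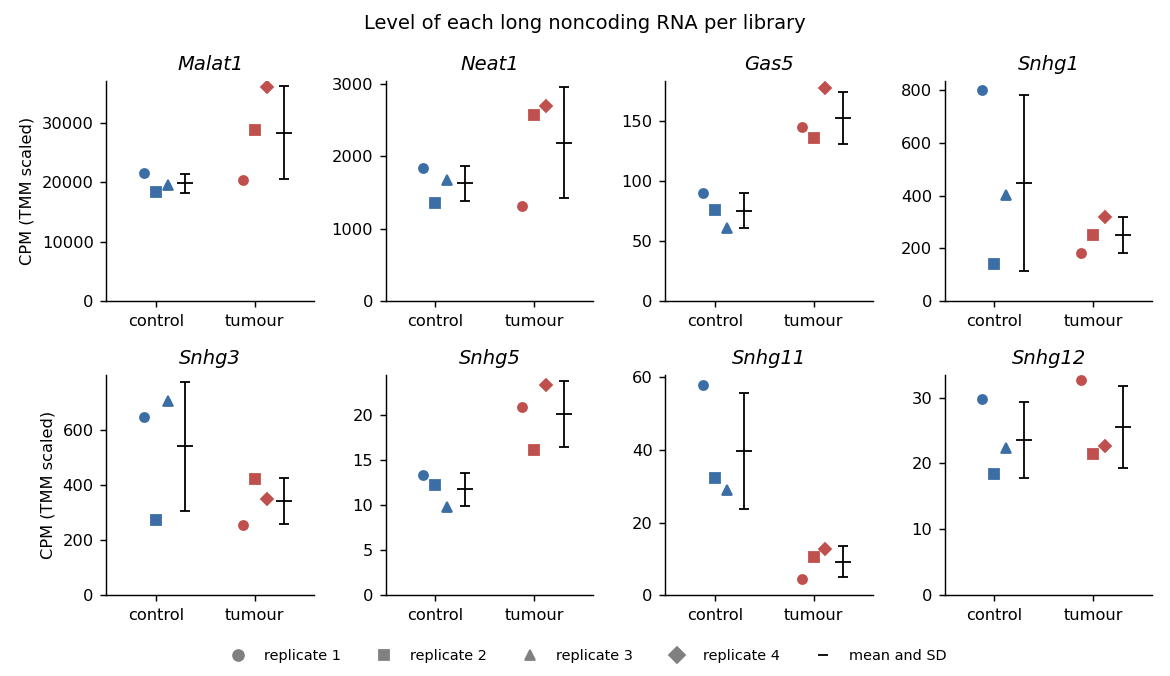
CPM (TMM scaled, vertical axes from 0) of the 8 long noncoding RNAs in 3 control and 3 tumour libraries, 1 point per library with the mean and SD beside each group. Control and tumour points do not overlap for Gas5, Snhg5 and Snhg11, and do overlap for the other 5.

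Malat1 lies on chromosome 19 of mm9 (chr19:5795690-5802671, minus strand) as 1 exon block of 6982 bases. It took 2.04% to 3.42% of all counted reads. Its level was 21592, 18336 and 19487 CPM in control replicates 1, 2 and 3, and 20448, 28718 and 35952 CPM in tumour replicates 1, 2 and 4. Tumour replicates 2 and 4 lay above every control, while tumour replicate 1 lay among the controls. The mean was 19805 ± 1651 CPM in control and 28372 ± 7758 CPM in tumour (SD, n = 3 each), a 1.43-fold difference. With a log2 fold change of 0.52 ± 0.31 (SE) and an edgeR adjusted p of 0.222, it did not exceed the spread between libraries. The SD of the tumours was larger than that of the controls. The antisense name Gm20417 lies wholly within Malat1, and without strand information the reads of the pair cannot be told apart.

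Neat1 is the next gene along, 22037 bases from Malat1 on the same strand (chr19:5824708-5845478), and its 20771 exon bases cover the long isoform on which paraspeckles are built. Control libraries had 1843, 1361 and 1674 CPM and tumour libraries 1308, 2574 and 2689 CPM. The order within the tumours was that of Malat1, with tumour replicate 1 below the controls and the other 2 above them. Its log2 fold change was 0.43 ± 0.30 (edgeR adjusted p = 0.287). Leaving out tumour replicate 1 brought it to 0.72 with an adjusted p of 0.0209. Tumour replicate 1 also had the lowest summed alveolar type 2 marker level of the tumours, 22490 CPM. It was lowest too for alveolar type 1, fibroblast, lymphocyte and macrophage markers, at 576, 152, 3.12 and 112 CPM. For endothelial, club cell and ciliated markers it was not the lowest. The part of these differences in the Neat1 result was not tested. Per kilobase, Malat1 exceeded Neat1 36.5 ± 3.07-fold in control and 39.8 ± 6.66-fold in tumour libraries (SD, n = 3 each), and those ranges overlapped. Frmd8, 4224 bases beyond Neat1, had a log2 fold change of 0.05 and did not pass the test.

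By likeness of profile over the 6 libraries, the genes nearest to Malat1 among 12305 compared were Adam10, a membrane protease, Ppp2r2a, a phosphatase subunit, and Tdrd5. Their log2 CPM, centred on the control mean, differed from that of Malat1 by 0.0486, 0.0665 and 0.0756 on average. Of these, Ppp2r2a passed the test at a log2 fold change of 0.52 (edgeR adjusted p = 0.0405).

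Gas5, whose spliced RNA builds up when growth is arrested and whose introns hold box C/D snoRNAs, lies at chr1:162964553-162968670 of mm9 on the plus strand. It had 89.6, 75.6 and 60.5 CPM in control and 144, 135 and 177 CPM in tumour libraries. Every tumour library was above every control. The log2 fold change was 1.02 ± 0.19, a 2.02-fold increase (edgeR adjusted p = 0.00319). Against a null of a 2-fold change in place of no change, the adjusted p was 0.675. The box C/D snoRNA names inside it moved to a similar extent. They share reads with Gas5, so the count that follows is not separate from the Gas5 result. Of 9, all 9 were tested and 7 were higher, where 18.1% of all genes were. Log2 fold changes were 0.79 to 1.21 over the 9, with a median of 1.01. SNORD24, SNORD75, SNORD79 and SNORD81 each cover 2 loci, with 45.3% to 52.9% of their bases in Gas5 exons. Their reads can therefore also come from outside Gas5. SNORD78 went from 5.22, 4.18 and 3.49 CPM to 9.79, 6.88 and 9.94 CPM (log2 fold change 1.05, adjusted p = 0.0114). Snord47 and SNORD79, at 0.79 and 0.94, did not pass (edgeR adjusted p = 0.0562 and 0.0588).

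Reads of these snoRNAs that fall in Gas5 exons are also Gas5 reads, so the values of host and snoRNAs are not independent. The sharing runs the other way too. Gas5 exons cover 91.3% of its span, in 3 blocks, and host reads that reach into a snoRNA also count for that snoRNA. How much of the rise of the snoRNA names came from such host reads was not tested. The 5 single-locus snoRNA names that lie in Gas5 exons accounted for 14.4% to 18.7% of the Gas5 reads. Without them Gas5 stood at 76.1, 63.0 and 50.6 CPM in control and 117, 116 and 151 CPM in tumour libraries, and the groups stayed apart. The log2 fold change was again 1.02 ± 0.19 (edgeR adjusted p = 0.00359). The profiles nearest to Gas5 were those of Hspe1, a mitochondrial chaperonin subunit, SNORD78, whose reads it shares, and Hmgn1, a nucleosome-binding protein, at mean distances of 0.0850, 0.0897 and 0.0911. Hspe1 and Hmgn1 were higher in tumours, with log2 fold changes of 1.00 and 0.92. Serpinc1, beside Gas5, and Zbtb37, which overlaps its span, did not pass the test.

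Snhg5, a host of SNORD50 snoRNAs, lies at chr9:88415894-88417721 of mm9 on the minus strand. Its levels were low: 13.3, 12.2 and 9.77 CPM in control and 20.9, 16.1 and 23.3 CPM in tumour libraries. The groups did not overlap. The log2 fold change was 0.78 ± 0.20, a 1.71-fold increase (edgeR adjusted p = 0.0161). The call was lost when control replicate 2, control replicate 3 or tumour replicate 4 was left out, with adjusted p of 0.0501, 0.0590 and 0.0577. SNORD50, a name that covers 5 loci of which some lie in Snhg5 introns, rose from 1.49, 1.31 and 1.64 CPM to 3.04, 2.57 and 3.25 CPM (log2 fold change 1.00, adjusted p = 0.0202). It shares no exon base with Snhg5. Syncrip, an RNA-binding protein gene 38482 bases away, was also higher (0.54, edgeR adjusted p = 0.0251), and Zfp949 on the other side did not pass.

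Snhg11, at chr2:158201374-158211881 of mm9 on the plus strand, showed the opposite. It had 58.0, 32.3 and 28.9 CPM in control and 4.48, 10.4 and 12.8 CPM in tumour libraries. The highest tumour was below the lowest control. The log2 fold change was -2.11 ± 0.42, which is 4.31-fold lower in tumours (edgeR adjusted p = 0.00426). That call held under all 19 alternatives, with log2 fold changes of -2.66 to -1.73. The alternatives that took off exonic snoRNA reads removed none from Snhg11, so they could not change its call. Counts behind it ranged from 274 to 2135 reads. SNORA71, the box H/ACA name inside it, covers 15 loci, did not pass the test, and had a log2 fold change of 0.78 (edgeR adjusted p = 0.0842). The neighbouring noncoding name 9430008C03Rik, on the other strand 14058 bases away, was higher at 1.34 (adjusted p = 0.0153), and Ralgapb, at 23703 bases, did not pass. Endothelial, lymphocyte, club and ciliated markers fell in the same libraries, and their part in the Snhg11 result was not tested.

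Snhg1 and Snhg3 differed from Gas5 in what their counts held. Reads of single-locus exonic snoRNAs equalled 81.0% to 97.6% of the Snhg1 reads and 97.3% to 99.2% of the Snhg3 reads. Snhg1 (chr19:8797986-8800932 of mm9, plus strand) is annotated as 1 block of 2947 exon bases, so its introns and their snoRNAs count as exon. It had 799, 140.4 and 402 CPM in control and 184, 251 and 319 CPM in tumour libraries. Control replicates 1 and 3 were above all tumours and control replicate 2 below them. With a log2 fold change of -0.83 ± 0.53, Snhg1 did not pass (edgeR adjusted p = 0.248). Snord22, needed for maturation of the small-subunit ribosomal RNA, had 776, 120 and 387 CPM in control and 143, 225 and 284 CPM in tumour libraries. It followed Snhg1 library by library and held 77.6% to 97.1% of the Snhg1 reads.

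Removing the reads of the 5 single-locus snoRNA names in its exons left 712, 1093 and 598 Snhg1 reads in control and 2140, 1186 and 1400 in tumour libraries. As CPM these were 19.3, 16.6 and 12.1 against 35.0, 21.3 and 30.4, with every tumour above every control. The log2 fold change of the remainder was 0.85 ± 0.24 (edgeR adjusted p = 0.0229), the opposite sign from that of all reads. In that fit 42% of all genes passed the test, 18.2% higher and 23.9% lower, and the groups did not overlap in 56%. The call on the remainder was lost without control replicate 2, control replicate 3 or tumour replicate 4 (adjusted p = 0.0672, 0.0781 and 0.0574). Of the 8 snoRNA names in Snhg1, SNORD28 was higher (0.94, edgeR adjusted p = 0.0475) and 7 did not pass. SNORD25, SNORD26, SNORD27, SNORD29, SNORD30 and SNORD31 had log2 fold changes of 0.26 to 0.87, and Snord22 had -0.98. Slc3a2, an amino acid transporter chain that is transcribed away from Snhg1 from a start 127 bases off, was lower in tumours, at 76.6, 95.9 and 78.5 CPM against 51.5, 47.6 and 39.2 CPM (log2 fold change -0.86 ± 0.16, adjusted p = 0.00361).

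Snhg3 overlaps the Rcc1 gene (chr4:131903929-131909601 of mm9, minus strand). It had 645, 273 and 702 CPM in control and 255, 420 and 348 CPM in tumour libraries. As for Snhg1, control replicates 1 and 3 were above all tumours, and control replicate 2 was among them. At a log2 fold change of -0.66 ± 0.35, Snhg3 did not pass (edgeR adjusted p = 0.171). Snora73a reads equalled 97.3% to 99.2% of the Snhg3 reads. Taking them off left 9.46, 5.55 and 5.40 CPM in control and 6.90, 7.56 and 9.004 CPM in tumour libraries, which overlap, with a log2 fold change of 0.20 ± 0.28 (edgeR adjusted p = 0.588). These remainders can miss Snhg3 reads, since 159 of the 205 bases of Snora73a lie in Snhg3 exons and reads in its other bases were taken off as well. Snora73b, in an intron of Snhg3, had a log2 fold change of -0.95 (edgeR adjusted p = 0.0974). Gm17300, which overlaps both on the opposite strand, had -0.83 (edgeR adjusted p = 0.124). Rcc1, the exchange factor for Ran, shares 135 exon bases with Snhg3 and was higher in tumours (0.68, edgeR adjusted p = 0.0310). Gm17300 shares 705 exon bases with Snhg3. The remaining Snhg3 reads can therefore include reads of Rcc1 or, without strand information, of Gm17300, and the 0.20 cannot be assigned to Snhg3 alone.

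The box H/ACA names together took 0.532%, 0.234% and 0.497% of reads in control and 0.226%, 0.290% and 0.284% in tumour libraries. These sums contain the snoRNA reads of Snhg3, and without Snora73a and Snora73b the shares were 0.371%, 0.161% and 0.297% in control and 0.166%, 0.200% and 0.209% in tumour libraries. The corresponding shares of box C/D names were 0.259%, 0.127% and 0.242% in control and 0.152%, 0.126% and 0.136% in tumour libraries, and without Snord22 they were 0.186%, 0.113% and 0.201% against 0.138%, 0.106% and 0.109%. With or without these snoRNAs, control replicate 2 had the lowest control value of both classes, as it had for Snhg1 and Snhg3. What sets the recovery of such short RNAs in these libraries was not tested. Without control replicate 2, both host genes were called lower on all their reads, Snhg1 at -1.25 (edgeR adjusted p = 0.0347) and Snhg3 at -0.97 (adjusted p = 0.0244).

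Snhg12, a neighbour of Snhg3 on the other strand (chr4:131864593-131866939 of mm9), held a mixture of both situations. On all reads it had 29.8, 18.4 and 22.3 CPM in control and 32.7, 21.4 and 22.6 CPM in tumour libraries, and the groups overlapped (log2 fold change 0.12 ± 0.24, edgeR adjusted p = 0.717). Its 3 single-locus exonic snoRNAs took 39.2% to 67.9% of these reads. Among them Snora61 had 12.3, 4.21 and 8.98 CPM in control and 4.87, 4.72 and 5.60 CPM in tumour libraries (log2 fold change -0.74, edgeR adjusted p = 0.142). Snord99 rose from 0.869, 0.714 and 0.914 CPM to 2.35, 1.74 and 1.95 CPM (log2 fold change 1.28, edgeR adjusted p = 0.0106). Snora44 and Snora16a, at -0.36 and -0.32, did not pass. The remaining host reads stood at 10.4, 7.92 and 7.17 CPM in control and 19.9, 10.004 and 12.2 CPM in tumour libraries. The groups overlapped through tumour replicate 2 and control replicate 1, and the log2 fold change of 0.72 ± 0.29 did not pass (edgeR adjusted p = 0.0777). It passed without tumour replicate 2 (0.92, adjusted p = 0.0335) and was 0.41 without tumour replicate 1 (adjusted p = 0.158).

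**Figure D2:**
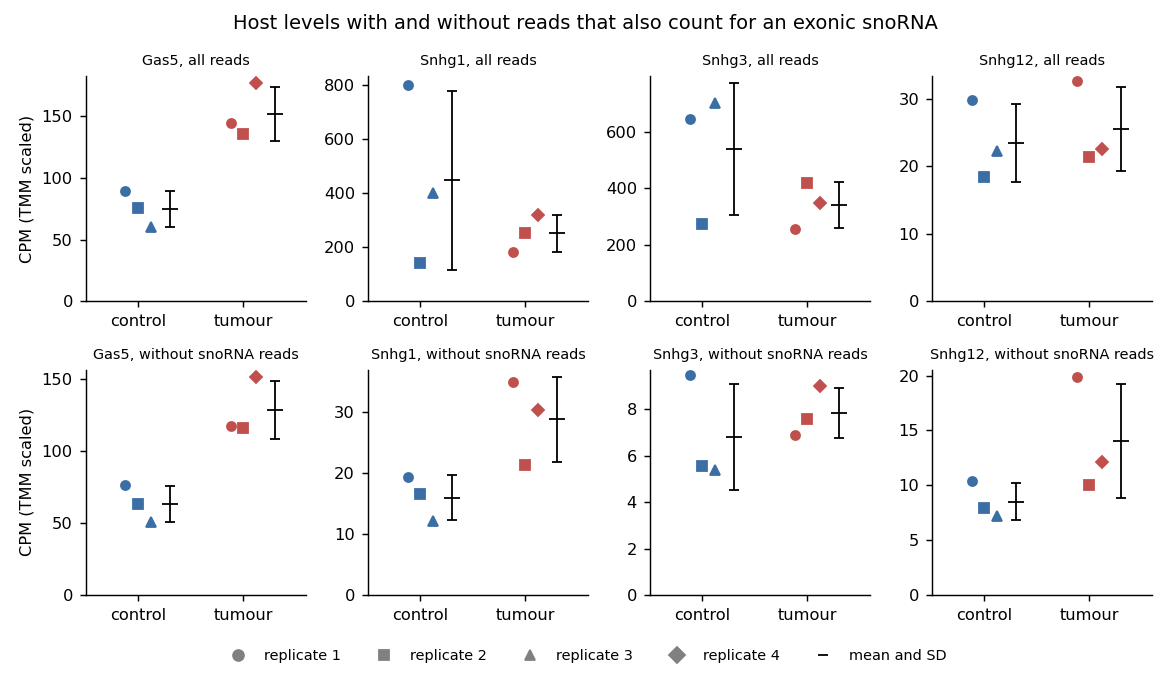
CPM (TMM scaled, vertical axes from 0) of 4 hosts in 3 control and 3 tumour libraries, with all reads in the upper panels and without the reads of single-locus exonic snoRNAs in the lower panels; bars give the mean and SD. Gas5 stays separated at somewhat lower levels, Snhg1 spans 140.4 to 799 CPM with all reads and 12.1 to 35.0 CPM without, with the tumours then above the controls, and the groups overlap in both panels of Snhg3 and Snhg12.

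Over the 6 hosts, 25 snoRNA names lay within a host's span, and all 25 were tested. By edgeR 10 were higher in tumours and 0 lower, where 18.1% of all genes were higher and 23.8% lower. Of the 10, 7 were names inside Gas5, and Snhg1, Snhg5 and Snhg12 held 1 each. Names in host exons share reads with their host, so the 25 are not independent of the hosts or of each other. The median log2 fold change of the 25 was 0.79. At an unadjusted p under 0.05, 14 were higher and 1 lower, and after adjustment DESeq2 called 12 higher and 1 lower and limma-voom 11 and 0. Log2 fold changes were below 0 for Snord22, Snora73a, Snora73b, Snora61, Snora44 and Snora16a. Of all box C/D names in the data, 20 of 113 tested were higher and 2 lower, with a median of 0.63. For box H/ACA names 7 of 97 were higher and 5 lower, with a median of -0.05.

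**Figure D3:**
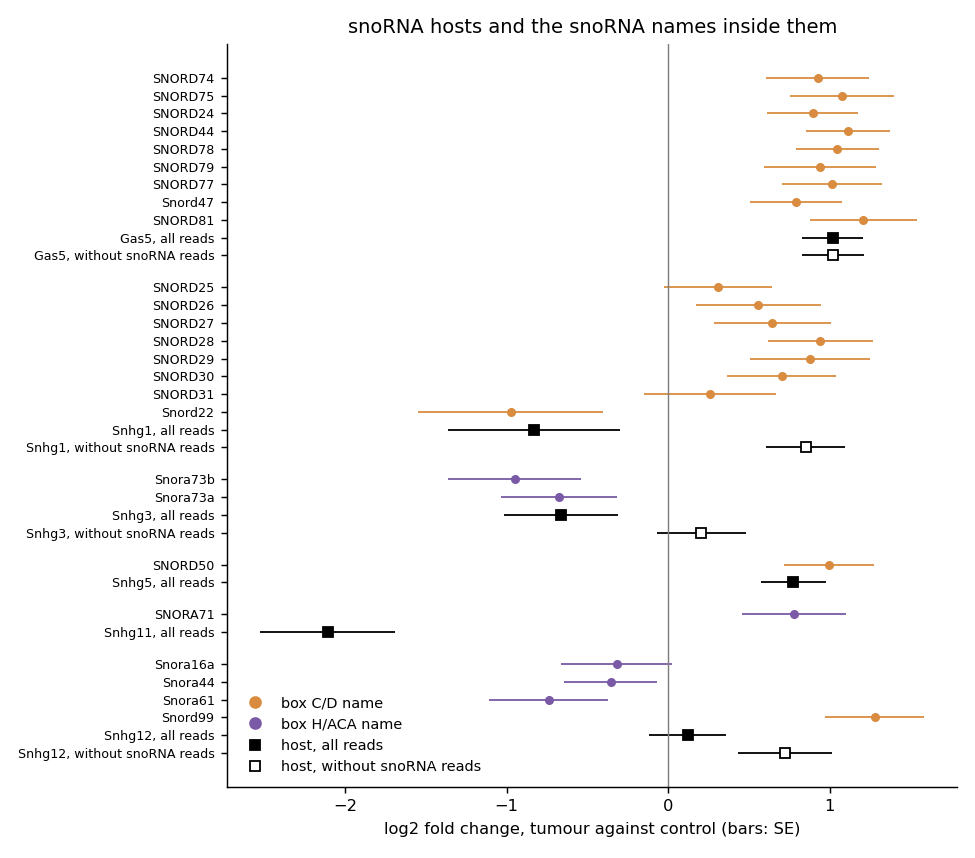
Log2 fold change of tumour against control (horizontal axis, bars are SE) for 6 hosts, with all reads as filled squares and without exonic snoRNA reads as open squares, and for the 25 snoRNA names inside them as circles coloured by class. The snoRNA names in Gas5 lie beside their host, while Snord22 lies beside Snhg1 counted with all reads and SNORD28 beside Snhg1 without snoRNA reads.

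Per kilobase of exon, the order of the levels depended on what the host counts held. With all reads the control means were 2837 RPKM for Malat1, 548 for Snhg3, 152 for Snhg1, 78.3 for Neat1, 14.5 for Snhg12, 11.8 for Snhg5 and 4.67 for Snhg11. Gas5, at 16.1 to 23.8 RPKM in the 3 control libraries, came between Neat1 and Snhg12 by its mean. Neighbours in this order whose libraries overlapped were Snhg1 and Neat1, Gas5 and Snhg12, and Snhg12 and Snhg5. Without the exonic snoRNA reads and bases, Snhg1 came to 6.31 ± 1.43 RPKM in control and 11.4 ± 2.74 RPKM in tumour libraries, and Snhg3 to 8.22 ± 2.78 and 9.46 ± 1.30 RPKM (SD, n = 3 each). Neat1 then took the place after Malat1, followed by Gas5 at 18.6 RPKM in control and 37.7 RPKM in tumour libraries, and by Snhg5 at 11.8 and 20.2 RPKM. In control lung Snhg5, Snhg3, Snhg12, Snhg1 and Snhg11 then overlapped each with the next in that order. Snhg11 was last in both groups, at 1.08 ± 0.503 RPKM in tumours, where no library reached the level of another of the 8 genes.

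Partner genes were counted from lists chosen by function. Of 12 other snoRNA hosts, 3 matched by name, and Snhg4 and Snhg7 were higher, where 18.1% of all genes were. Snhg4 had 3.10, 3.33 and 2.70 CPM in control and 7.95, 6.32 and 8.29 CPM in tumour libraries (log2 fold change 1.30, edgeR adjusted p = 0.00248). Snhg7 had 9.62, 7.60 and 12.4 CPM against 27.8, 17.6 and 18.0 CPM (1.10, edgeR adjusted p = 0.00950). Snhg9 did not pass, at 0.28. Tumours were thus above controls for both called hosts, in every library, as they were for 26.1% of all genes.

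All 15 TOP translation genes in the table were higher in tumours, where 18.1% of all genes were, with a median log2 fold change of 1.00. Eef1g, an elongation factor subunit, rose from 94.2, 118 and 98.9 CPM to 287, 232 and 196 CPM (1.20, edgeR adjusted p = 0.00126). Eef1b2, which recharges elongation factor 1A, rose from 115, 116 and 89.0 CPM to 362, 224 and 234 CPM (1.36, edgeR adjusted p = 0.00184). The log2 fold changes of Gas5 (1.02) and Snhg5 (0.78) lay within the 0.55 to 1.36 that the list spanned. The count was 8 without control replicate 2 and 9 without control replicate 3.

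The counts of the next 3 lists stand against 18.1% of all genes higher and 23.8% lower. Of 10 tested box C/D snoRNP proteins, 3 were higher and 0 lower, with a median of 0.48: Nop58 (1.34), a core protein, Znhit6 (0.63), an assembly factor, and Fbl (0.91), the methyltransferase. Of 6 box H/ACA proteins, 3 were higher and 0 lower, with a median of 0.67: Shq1 (1.12), an assembly chaperone, and the core proteins Nop10 (0.70) and Gar1 (0.88). Dkc1, the pseudouridine synthase, had 0.43 and did not pass (edgeR adjusted p = 0.107). Both counts fell to 1 without control replicate 1 or 2, and without control replicate 3 they were 1 and 0. The box H/ACA count was also 1 without tumour replicate 1 or tumour replicate 4. Of 12 factors of nonsense-mediated decay, which removes many spliced hosts, Upf2 alone was higher (0.50, edgeR adjusted p = 0.0280), and the median was 0.15. That call was lost without control replicate 1, 2 or 3 or tumour replicate 4. In these 3 lists no gene was lower by edgeR, DESeq2 or limma-voom, or at an unadjusted p under 0.05.

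Of 16 paraspeckle proteins, 5 were higher and 1 lower, with a median of 0.35, where 42% of all genes were called. Tardbp, an RNA-binding protein, rose from 162, 170.4 and 158 CPM to 300.1, 270.0 and 314 CPM (0.85, edgeR adjusted p = 0.00186). Nono, which with Sfpq and Pspc1 forms the paraspeckle core, rose from 80.5, 100.9 and 79.0 CPM to 204, 146 and 155 CPM (0.96, edgeR adjusted p = 0.00374). Sfpq (0.74) and Pspc1 (0.57) were higher and Zc3h6 (-0.68) was lower, and these 3 were picked out after their values were seen. Of 16 nuclear speckle proteins, 5 were higher and 0 lower, with a median of 0.32, where 18.1% of all genes were higher and 23.8% lower. The splicing factors Srsf6 (0.96) and Srsf3 (0.60) had the lowest p among them. That count was 2 without control replicate 1 or 2, 1 without control replicate 3 and 3 without tumour replicate 4. DESeq2 and limma-voom called 6 higher and 0 lower, and no gene was lower at an unadjusted edgeR p under 0.05.

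Among 7 other long noncoding RNAs tested, 2 were higher and 1 lower, with a median of 0.09, and 42% of all genes were called. Pvt1, beside Myc, rose from 5.08, 6.49 and 4.28 CPM to 14.04, 9.99 and 10.1 CPM (1.10, edgeR adjusted p = 0.00756). Mir17hg, a microRNA host, was higher at 1.03 (edgeR adjusted p = 0.0166). H19, an imprinted RNA, fell from 0.761, 1.90 and 0.934 CPM to 0.131, 0 and 0.0434 CPM (edgeR adjusted p = 0.00382). Tug1, 1700020I14Rik, Dleu2 and Airn did not pass. Without control replicate 2 or 3, 1 of the 7 was higher, and 2 were lower without control replicate 1 or any of the tumour replicates.

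Kcnq1ot1 itself has no value here, but 13 genes of the imprinted domain around Kcnq1 were tested. Of these, 2 were higher and 3 lower, with a median of 0.34. Whether Kcnq1ot1 silences each of them in lung was not tested. Cdkn1c, a cell cycle inhibitor, fell from 11.1, 10.1 and 6.80 CPM to 0.850, 0.611 and 0.911 CPM (-3.56, edgeR adjusted p = 7.48e-05). Osbpl5 (-0.73), for a lipid transfer protein, and Tspan32 (-1.91), for a tetraspanin, were lower too. Tnfrsf23, a decoy receptor, rose from 3.02, 1.91 and 2.09 CPM to 15.9, 10.7 and 8.92 CPM (2.34, edgeR adjusted p = 0.000531), and Phlda2 rose at low levels, from at most 0.190 CPM to at least 0.629 CPM (2.59, adjusted p = 0.00506). Kcnq1, at 0.43, did not pass (edgeR adjusted p = 0.0619). Over all genes 18.1% were higher and 23.8% lower. Without tumour replicate 1 the number higher was 4.

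**Figure D4:**
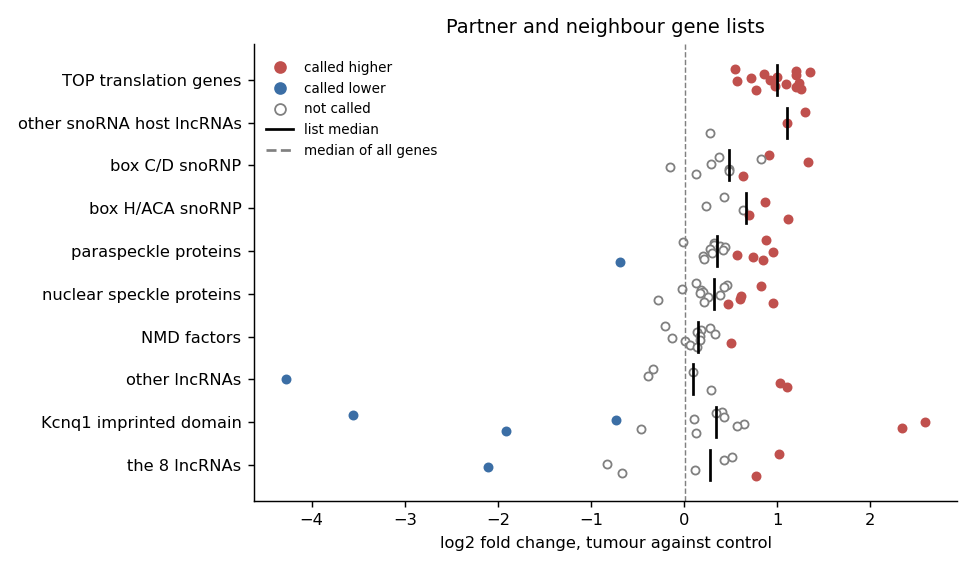
Log2 fold change of tumour against control (horizontal axis) for each tested gene of 9 partner lists and for the 8 long noncoding RNAs, filled where called, with a bar at each list's median and a dashed line at the median of all genes. All 15 TOP translation genes lie on the higher side, and the imprinted domain around Kcnq1 holds 2 genes called higher and 3 called lower.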

How the data were processed

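Per the labels' protocols, total RNA was extracted with Trizol, purified on a column and made into standard Illumina libraries. The deposited values are raw read counts per gene name, made by the authors with featureCounts 1.6.5 over GENCODE vM1 exons, per the file headers. A read overlapping several names counted for each, with no strand setting. The submitters' processing notes also name STAR, limma, edgeR and R 3.6.0, with the builds GRCm38 and mm9; the table's coordinates are those of mm9. No column was left out.

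Genes were tested across the whole table with edgeR 4.0.16 (R 4.3.3; quasi-likelihood F test, TMM, filterByExpr with a minimum count of 10, Benjamini-Hochberg, adjusted p under 0.05). DESeq2 1.42.0 and limma-voom (limma 3.58.1) were alternatives, and the fit was tested on simulated data. RPKM is CPM per kilobase of the deposited length. The host counts without snoRNA reads subtract every read counted for a snoRNA name of 1 locus with at least 50% of its bases in host exons, an alternative chosen after seeing the data. Reads of the host's own precursor that reach into the snoRNA go with them.

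The RNAs and the lists were chosen with earlier results of these data known. Named besides the 8 RNAs were overlapping and neighbouring genes, the 2 genes of lowest p per list, the called genes of lists with 3 or fewer, and for Malat1 and Gas5 the 3 nearest profiles among genes with a mean log2 CPM (prior count 2) of at least 2. The chi-square per degree of freedom between libraries of a group was 59.1 to 258, so each counted once.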

Additional observations from a re-analysis of the deposited data

How the results depend on the processing

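Among the called RNAs, direction and side of the threshold held for Snhg11 in 19 of 19 alternatives, for Gas5 in 17 and for Snhg5 in 13. Among those not called, they held for Malat1 in 19, Neat1 in 18, Snhg12 in 17, and Snhg1 and Snhg3 in 16 each. For RNAs not called, the 0.01 threshold and the 2-fold test could not change the side. The alternatives without exonic snoRNA reads took no reads from Snhg11, Snhg5, Malat1 or Neat1. For these RNAs they could not change the outcome either. Genes called fell from 8397 to 3965 in a test against a 2-fold change and to 3641 with the replicate number as a replicate block. Those higher fell from 3627 to 2073 at an adjusted p under 0.01, 1056 in the 2-fold test and 1092 with the block, and those lower from 4770 to 2909 and 2549 in the last 2. Of the 8 RNAs, 1 was higher at the 0.01 threshold, 0 in the 2-fold test and 0 with the block, and 1 to 3 were higher and 1 to 3 lower when single libraries were left out: 1 higher without control replicate 2, control replicate 3 or tumour replicate 4, and 3 lower without control replicate 2. Genes called over the 9 lists, 43 in all, came to 28 with library totals only, 23 at the 0.01 threshold, 5 in the 2-fold test, 7 with the block, and 26 to 47 with single libraries left out (27 without control replicate 2 and 26 without control replicate 3). The stricter tests call fewer genes by construction. In the fit with the block, control replicate 3 and tumour replicate 4 had numbers that occur in 1 group only. They added nothing to the group difference, which rested on replicates 1 and 2 of each group, so that fit had less power. For other shifts the cause was not tested.

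Gas5 had log2 fold changes of 1.02 in the 2-fold test (adjusted p = 0.675) and 0.76 with the block (0.102). Snhg5 had 0.78 at the 0.01 threshold (0.0161) and in the 2-fold test (1.00), and 0.53 with the block (0.298). Leaving out single libraries gave 0.90 to 1.16 for Gas5, 0.66 to 0.92 for Snhg5, 0.27 to 0.72 for Neat1, -1.25 to -0.11 for Snhg1, -0.97 to -0.41 for Snhg3 and -0.071 to 0.33 for Snhg12. Snhg12 was -0.02 without control replicate 2 and -0.071 without tumour replicate 1. Host reads without single-locus exonic snoRNAs gave 0.85 for Snhg1 and 0.20 for Snhg3, and without all exonic snoRNA names 0.87 and 0.20. These signs are opposite to those on all reads. The subtraction also took off host precursor reads that reach into the snoRNAs, and their part was not tested. Ranked by CPM with no length, 2 of the 8 RNAs kept their place. Library totals in place of TMM moved the median of all genes from 0.01 to -0.10 and the share of calls that were higher from 43.2% to 33.6%, and left 1 nuclear speckle, 1 box C/D, 1 box H/ACA and 0 decay genes higher. Of 342 list counts under the alternatives, 60 moved by over 1.5 times.

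Only the numbers 1 and 2 occur in both groups and no label says what they share, so the libraries were not paired. Deviations of same-numbered libraries correlated at -0.18 and -0.01 across genes. With 3 libraries a group, the differences seen for Malat1 and Neat1 did not pass the test.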
